A study of Mus musculus with 10 samples.

Results

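The clustered protocadherin genes, a family of neural cell adhesion molecules encoded side by side in 3 clusters on chromosome 18, were examined in cultured mouse neural stem and progenitor cells (NSPCs). The members were all protein-coding genes of the mm10 annotation whose symbol begins with Pcdha, Pcdhb or Pcdhg followed by a letter or digit. This gave 57 of 21938 protein-coding genes, with 12 alpha genes (Pcdha1 to Pcdha12), 2 C-type genes of the alpha cluster (Pcdhac1 and Pcdhac2), 22 beta genes, 12 gamma A genes, 6 gamma B genes and 3 C-type genes of the gamma cluster (Pcdhgc3, Pcdhgc4 and Pcdhgc5). Pcdhgb8, annotated as a polymorphic pseudogene, was left out.

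In the alpha and gamma clusters, each gene has its own large first exon, the variable exon, with its own promoter, and this exon is spliced to constant exons shared by the whole cluster. The beta genes each consist of a variable exon alone. In neurons, most variable promoters are used in only some cells, so that neighbouring neurons carry different sets of protocadherins on their surface and can tell self from non-self, whereas the C-type genes are more widely used across cells. CTCF and cohesin join chosen promoters to enhancers in and beyond the clusters, and DNA methylation marks promoters that are not chosen.

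NSPCs came from the brains of C57BL/6 mice at postnatal day 5 and were grown as a mixture of stem and progenitor cells. Activated NSPCs were kept with FGF2 and EGF at 20 ng/ml each. Quiescent NSPCs were held without EGF, with FGF2 at 20 ng/ml and BMP4 at 25 ng/ml, for 4 days by the labels and for 72 h by the methods of the ATAC-seq experiment. Reactivated NSPCs were quiescent cells returned for 9 to 12 days to the medium of the activated cells. There were 2 ATAC-seq libraries per state, described in the methods as biologically independent, and 1 H3K4me3 ChIP-seq library for each of the quiescent and activated states. ATAC-seq maps open chromatin, and H3K4me3 is a histone mark found at the start of many genes.

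The ATAC-seq peak lists of replicates 1 and 2 held 55027 and 60881 peaks for quiescent, 58618 and 47323 for activated and 106586 and 107137 for reactivated NSPCs. The H3K4me3 lists held 17186 regions in quiescent and 15980 in activated NSPCs. A summit needed a pileup of at least 16 to 25 reads to be called, against a library background of 6.01 to 12.1, so weaker openings were not detectable. Promoters of all 6 progenitor markers examined (Sox2, Nes, Pax6, Fabp7, Vim and Sox9) had an ATAC peak in every library, and none of the 4 oligodendrocyte, 4 microglial and 3 endothelial markers did. Among the latter, the oligodendrocyte gene Mbp had a peak in quiescent replicate 2 and in both reactivated libraries, and H3K4me3 in both states. The endothelial gene Pecam1 had one in replicate 1 of activated and of reactivated NSPCs. The microglial gene Cx3cr1 had one in quiescent replicate 1, and the rest had none in any library. Of the neuronal markers, 4 of 5 had a peak in every library, and of the astrocyte markers 1 of 3, Aldh1l1.

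Most clustered protocadherin promoters had no ATAC peak in any state. Within 1 kb of a transcription start site (TSS), 50 of the 57 members had no peak in any of the 6 libraries, whereas 31.4% of all protein-coding promoters had none. In bulk libraries, a promoter open in few cells and one weakly open in all cells cannot be told apart, and both can fall below the threshold. Open in all 6 libraries were 4 members, which is 7.02% (exact binomial 95% interval 1.95 to 17.0, which covers counting error only), against 53.2% of all protein-coding promoters. These 4 were all C-type genes, namely Pcdhac1, Pcdhac2, Pcdhgc3 and Pcdhgc4. The fifth C-type gene, Pcdhgc5, had no ATAC peak in any library. None of the 12 other alpha genes and none of the 6 gamma B genes had an ATAC peak in any library. In contrast, 11 of 12 protocadherin genes that lie outside the clusters were open in all 6 libraries, with Pcdh12 the exception.

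The remaining 3 members with a peak were seen in 1 or 2 libraries. Pcdhb16 had a peak in reactivated replicate 2, with a fold enrichment over background of 3.19. Pcdhga3 had one in activated replicate 2, with a fold enrichment of 2.85. Pcdhga7 had one in quiescent replicate 2 and one in reactivated replicate 2, with fold enrichments of 4.89 and 3.59. No other library had a peak at these 3 promoters, so none of them was open in both libraries of any state.

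**Figure D1:**
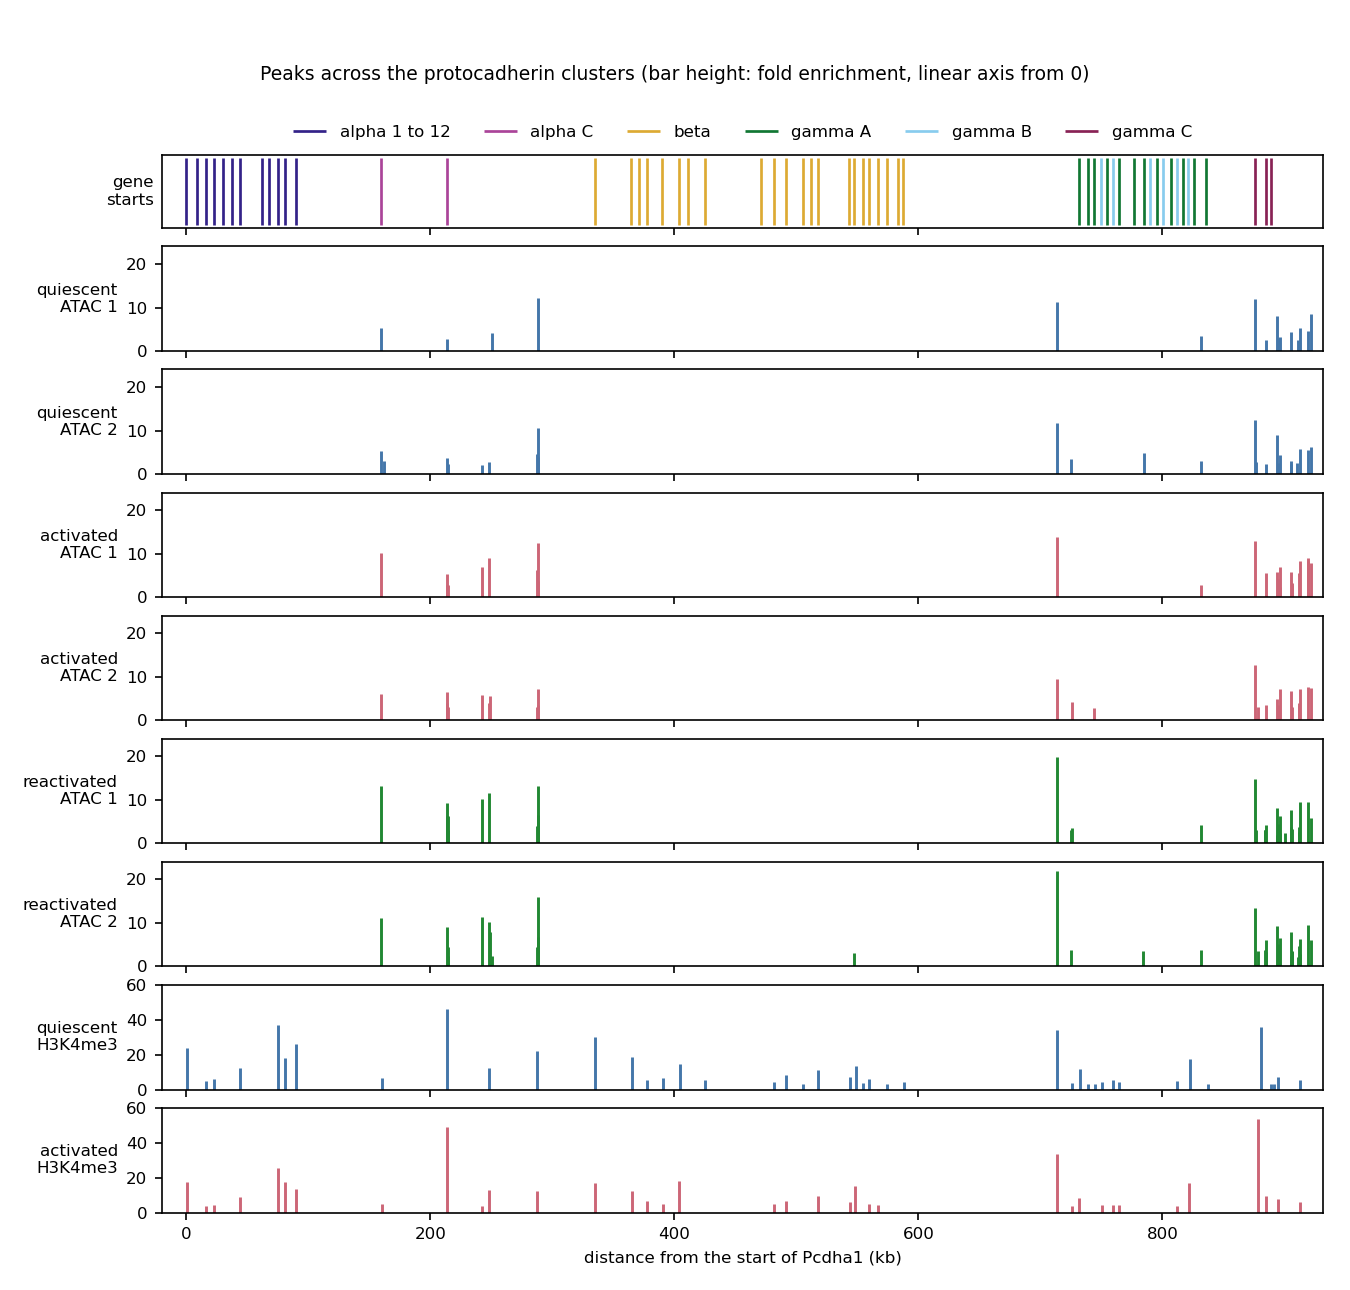
Peaks across the protocadherin clusters in 6 ATAC-seq and 2 H3K4me3 libraries. The horizontal axis is the distance in kb from the start of Pcdha1, the top row marks the start of each of the 57 genes by subgroup, and each bar stands at the centre of a peak with its fold enrichment as height. ATAC peaks stand at the C-type genes, at the ends of the alpha and gamma clusters and at Taf7, and are nearly missing from the beta cluster, where H3K4me3 regions are frequent.

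The number of open member promoters did not separate the states. It was 4 and 5 in the quiescent, 4 and 5 in the activated, and 4 and 6 in the reactivated libraries. The means were 4.5 ± 0.707 (SD, n = 2) in quiescent and activated NSPCs and 5 ± 1.41 (SD, n = 2) in reactivated NSPCs, and the difference had p = 1 in each of the 3 comparisons (exact permutation test, two-sided, in which 2 against 2 libraries cannot go below 0.333). No member had peaks in all libraries of one state while lacking them in all of another. Among all protein-coding promoters, 0.766% were open in both quiescent and neither activated library and 0.944% the reverse. The share open in both reactivated libraries was 5.80% with neither quiescent library open and 5.36% with neither activated library open, and the reverse patterns made up 0.0593% and 0.0228%. At the rate of all genes, few of 57 promoters would show the patterns with shares of 5.80% and 5.36%, and hardly any the rarer ones. In each of the 3 states taken alone, 4 members were open in both libraries, against 55.6% of all promoters in quiescent, 55.9% in activated and 65.1% in reactivated NSPCs.

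**Figure D2:**
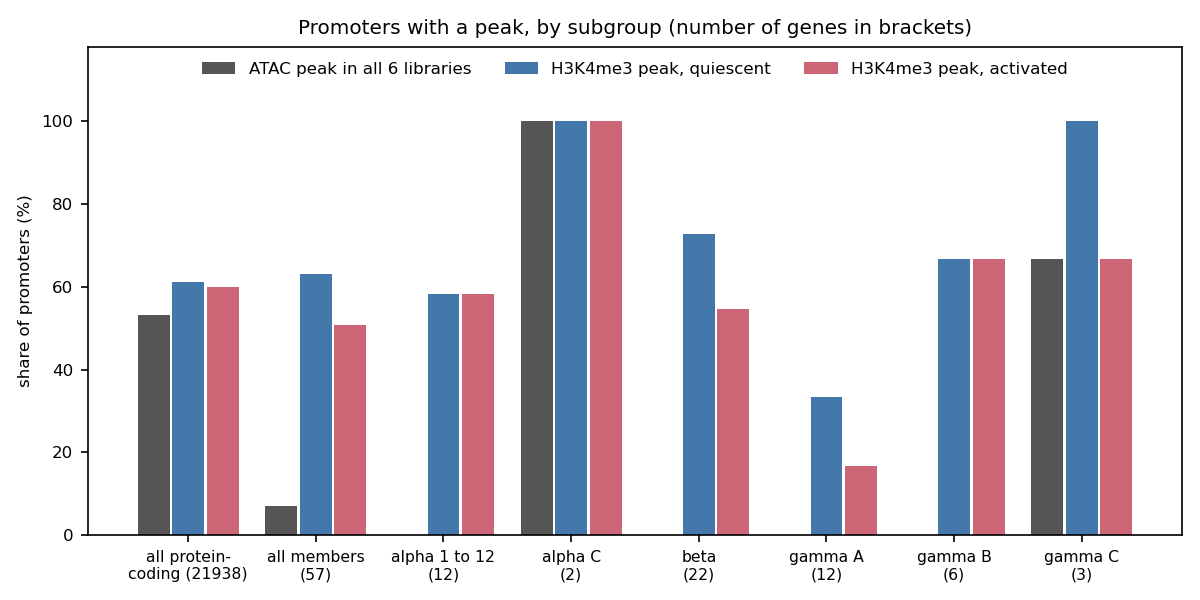
Share of promoters in percent with an ATAC peak in all 6 libraries (grey), with H3K4me3 in quiescent (blue) and with H3K4me3 in activated NSPCs (red), for all protein-coding genes, all members and each subgroup. Outside the C-type genes no subgroup had a promoter open in all 6 libraries, while the share with H3K4me3 reached 72.7% in the beta genes of quiescent NSPCs.

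The 4 open promoters differed in strength and in how it varied with state. Values are the fold enrichment of the strongest peak in the promoter, on the linear scale of the peak lists, which was not scaled between libraries. Pcdhac1 (ENSMUSG00000103255.1, chr18:37090013-37187657, plus strand, GRCm38), the first C-type gene of the alpha cluster, had 5.26 and 5.35 in the quiescent, 10.1 and 6.13 in the activated and 13.2 and 11.0 in the reactivated libraries, with replicate 1 before replicate 2 here and for all values below. The quiescent values were the lowest, and the 3 states did not overlap. Its peak, at chr18:37089659-37090214, covered the gene start and the 5′ part of the variable exon.

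Pcdhac2 (ENSMUSG00000102697.1, chr18:37143503-37187657), the last variable gene of the alpha cluster, had fold enrichments of 2.76 and 3.74 in the quiescent, 5.30 and 6.56 in the activated and 9.31 and 8.93 in the reactivated libraries. The quiescent values were the lowest and the reactivated ones the highest, without overlap. Pcdhgc3 (ENSMUSG00000102918.1, chr18:37806364-37841873), the first C-type gene of the gamma cluster, was the strongest of the 4, with 11.9 and 12.4 in the quiescent, 13.0 and 12.7 in the activated and 14.7 and 13.5 in the reactivated libraries. The states came in the same order without overlap, but over a narrower range than at the other 3 promoters. Pcdhgc4 (ENSMUSG00000023036.14, chr18:37815079-37841873), which cortical interneurons need to survive during development, was the weakest by mean in each state, with 2.63 and 2.45 in the quiescent, 5.49 and 3.42 in the activated and 4.31 and 6.10 in the reactivated libraries. In activated replicate 1 it was above Pcdhac2. Its quiescent values lay below its others, and the activated and reactivated values overlapped. Its summits in the quiescent libraries held 19 and 31 reads, close to the lowest pileups called there, 17 and 25, whereas those of Pcdhgc3 held 115 and 163.

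Because fold enrichment was higher at most promoters in the reactivated libraries, strengths were compared after log2 transformation and centring of each library on its median. Without centring, the median over all 11663 promoters with a peak in all 6 libraries was higher by 0.13 (log2) in activated than in quiescent, by 0.48 in reactivated than in activated, and by 0.62 in reactivated than in quiescent NSPCs. Over the 23116 sites with a peak in all 6 libraries these shifts were 0.15, 0.55 and 0.72. The differences in strength that follow are relative to the median promoter or site.

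Between activated and quiescent NSPCs, limma called 1.65% of these promoters at an adjusted p under 0.05 and none of the 4 members, of which 3 had an unadjusted p under 0.05, as did 17.3% of all promoters. The difference (activated minus quiescent, log2) was 0.72 (SE 0.21, adjusted p = 0.113) at Pcdhac2, 0.62 (SE 0.19, adjusted p = 0.128) at Pcdhgc4, 0.41 (SE 0.19, adjusted p = 0.285) at Pcdhac1 and -0.08 (SE 0.15, adjusted p = 0.817) at Pcdhgc3. Thus the estimate was above 0 at 3 members, but none passed the threshold over all promoters. The estimate at Pcdhgc3 was 0.08 without centring. Leaving out 1 library moved the estimate over 0.18 to 0.65 at Pcdhac1, 0.44 to 0.996 at Pcdhac2 and 0.40 to 0.84 at Pcdhgc4.

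Between reactivated and quiescent NSPCs, 26.4% of promoters were called, 12.9% as higher in reactivated NSPCs, and 1 of the 4 members was called. Pcdhac2 was higher in reactivated NSPCs by 0.84 (log2, SE 0.21, limma adjusted p = 0.0159). This call was lost with quantile normalization (0.67, adjusted p = 0.0524), when promoters with a peak in 4 or 5 libraries were added (0.81, adjusted p = 0.0646), without quiescent replicate 1 (0.60, adjusted p = 0.0979), without reactivated replicate 1 (0.77, adjusted p = 0.114) and without reactivated replicate 2 (0.92, adjusted p = 0.0677). Pcdhac1 had a difference of 0.53 (SE 0.19, adjusted p = 0.0570), Pcdhgc4 of 0.36 (SE 0.19, adjusted p = 0.172) and Pcdhgc3 of -0.44 (SE 0.15, adjusted p = 0.0507). The last turned to 0.21 (adjusted p = 0.273) without centring and ran over -0.55 to -0.34 without 1 library. Pcdhac1 was called at a -log10 q of at least 10 (0.58, adjusted p = 0.0276) and with a replicate block (0.53, adjusted p = 0.0431). Its difference ran over 0.35 to 0.70 without 1 library. Between reactivated and activated NSPCs, 12.7% of promoters were called and none of the 4 members by limma, with 1 unadjusted p under 0.05, as in 31.2% of all promoters. The adjusted p ranged from 0.127 at Pcdhgc3 to 0.712 at Pcdhac2. Without centring, 1, 2 and 3 of the 4 members were called in these comparisons, in the order activated against quiescent, reactivated against activated and reactivated against quiescent, where 2.92%, 49.1% and 66.0% of all promoters were called. The comparisons share libraries, so their results are not independent of each other.

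**Figure D3:**
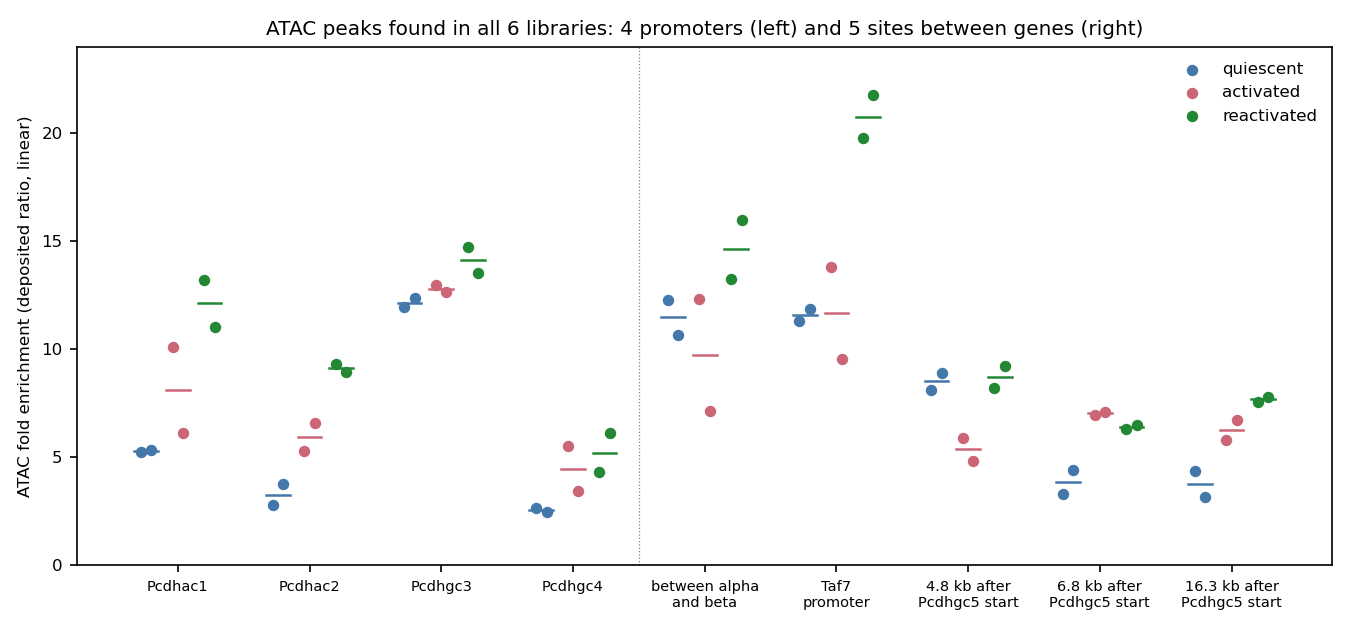
Fold enrichment (linear axis, as deposited) of the ATAC peaks found in all 6 libraries, at 4 promoters and 5 sites between genes. Each point is a library, each line the mean of 2 libraries, and colour gives the state. At Pcdhac2 the points run from 2.76 and 3.74 in quiescent to 9.31 and 8.93 in reactivated NSPCs, whereas the site 4848 bp after the start of Pcdhgc5 has its lowest points in activated NSPCs.

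H3K4me3 gave a different picture from ATAC-seq. In quiescent NSPCs 36 of 57 members had an H3K4me3 region within 1 kb of a TSS, which is 63.2% (exact binomial 95% interval 49.3 to 75.6), against 61.2% of all protein-coding promoters. In activated NSPCs 29 members did, which is 50.9% (95% interval 37.3 to 64.4), against 60.0%. Both intervals held the share of all promoters, but they cover counting error only and treat the genes as independent. Neighbouring genes can share a region, as Pcdhgc3 and Pcdhgc4 did in quiescent NSPCs. With 1 library per state, the difference between states had no replicate check. Either state had H3K4me3 at 37 members, against 61.3% of all promoters. Of these 37 members, 31 had no ATAC peak in any library. Among all 13444 promoters with H3K4me3 in either state, 1.03% had no ATAC peak in any library. This share was 2.06% among the 5887 promoters whose H3K4me3 was no stronger than that of the strongest member without ATAC, at percentile 65.4 of the list. Those promoters include the members and were not matched to them in strength. The median percentile of marked members was 21.8 in quiescent and 21.5 in activated NSPCs. The 31 members were 7 of the alpha genes, 16 of the beta genes, 3 gamma A genes, 4 gamma B genes and Pcdhgc5. Neither mark was found at 19 members.

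H3K4me3 was found in both states at 28 members (background 59.9%), in quiescent NSPCs alone at 8 (background 1.31%) and in activated NSPCs alone at 1 (background 0.114%). The 8 were Pcdhb8, Pcdhb12, Pcdhb17, Pcdhb20, Pcdhb22, Pcdhga2, Pcdhga3 and Pcdhgc5. Their fold enrichment in quiescent NSPCs ranged from 3.07 at Pcdhb12 to 5.63 at Pcdhb8, which placed them between percentiles 1.86 and 18.8 of the list. They were thus all weak regions. The 1 member marked in activated NSPCs alone was Pcdhb19, with a fold enrichment of 4.32. The quiescent list was the longer one, and with both lists cut to an equal number of their strongest regions, an alternative chosen after seeing the data, 31 members were marked in quiescent and 29 in activated NSPCs.

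The alpha genes held some of the strongest H3K4me3 among members without an ATAC peak. Of the 12 alpha genes, 7 were marked, the same number in each state, and all 7 had a higher fold enrichment in quiescent NSPCs. Pcdha10 had 37.1 in quiescent and 25.4 in activated NSPCs, Pcdha12 had 26.2 and 13.5, and Pcdha1 had 23.7 and 17.7. Pcdha11 had nearly equal values of 17.9 and 17.7. Pcdha2, Pcdha5, Pcdha6, Pcdha8 and Pcdha9 had no region in either state, so marked and unmarked genes were interspersed along the cluster. The weakest marked alpha gene, Pcdha3, had 4.75 and 3.72. Of the C-type genes of this cluster, Pcdhac2 had 45.9 in quiescent and 48.9 in activated NSPCs, and Pcdhac1, although open in all 6 libraries, had only 6.77 and 5.08.

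Of the 22 beta genes, 16 were marked in quiescent and 12 in activated NSPCs, 11 of them in both. Pcdhb1, the first gene of the cluster, was the strongest in quiescent NSPCs with 29.8, and had 16.8 in activated NSPCs. Pcdhb6 was the strongest in activated NSPCs with 17.9, and had 14.5 in quiescent NSPCs. The median over marked beta genes was 6.29 in quiescent and 6.63 in activated NSPCs. These medians are over different sets of genes. Pcdhb2 and Pcdhb14 were higher in quiescent NSPCs, with 18.5 against 12.2 and 11.0 against 9.41, while Pcdhb16, which also had an ATAC peak in 1 library, was higher in activated NSPCs, with 15.1 against 13.7. Pcdhb3, Pcdhb7, Pcdhb9, Pcdhb13 and Pcdhb21 had no region in either state.

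The gamma A genes had the fewest marks, with 4 of 12 in quiescent and 2 of 12 in activated NSPCs. Pcdhga1, the first gene of the gamma cluster, was the strongest of them, with 12.0 and 8.17. Pcdhga7, open in 2 libraries, had no H3K4me3 region, and no gamma A gene after Pcdhga5 had one. Of the 6 gamma B genes, which alternate with the gamma A genes along the cluster, 4 were marked in both states, and Pcdhgb7 was the strongest with 17.3 in quiescent and 16.7 in activated NSPCs. At the gamma C genes, a single region of 11314 bp (chr18:37805370-37816683) spanned both Pcdhgc3 and Pcdhgc4 in quiescent NSPCs, with a fold enrichment of 35.8. In activated NSPCs this was listed as separate regions of 6067 bp at Pcdhgc3, with 53.4, and of 2244 bp at Pcdhgc4, with 9.43. The values of these genes in quiescent NSPCs therefore come from 1 region.

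**Figure D4:**
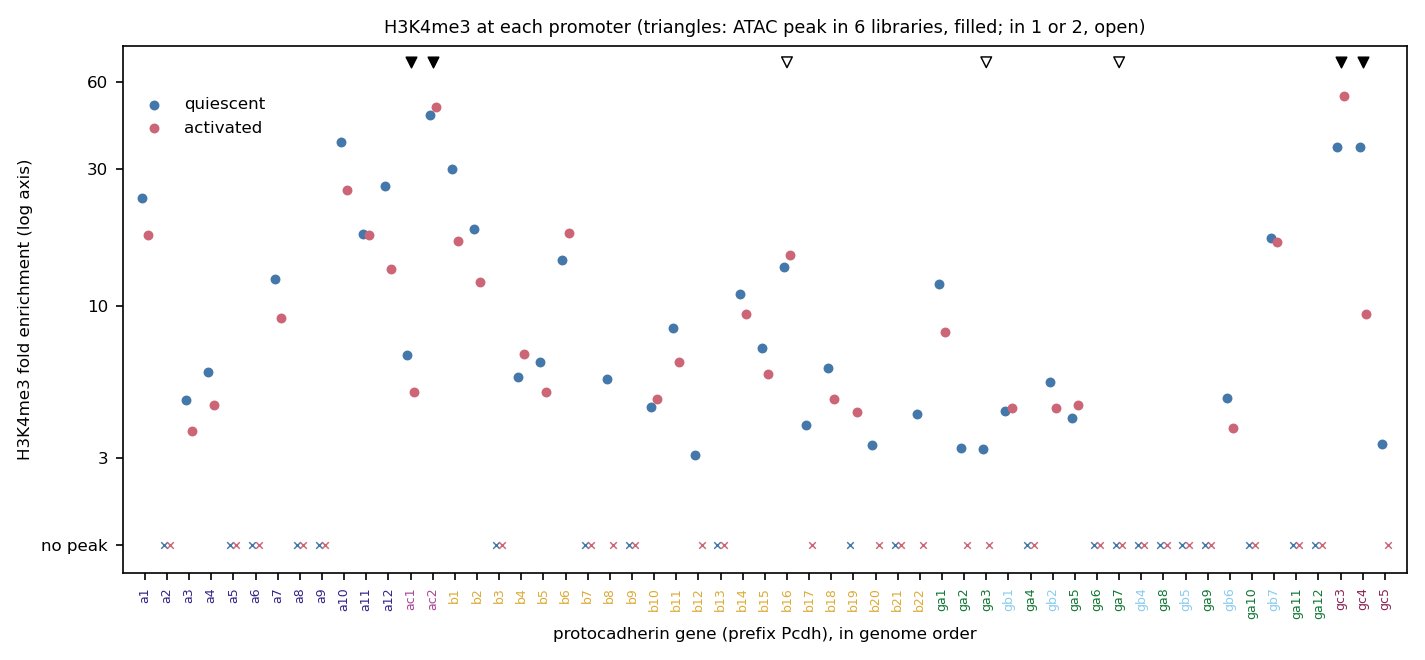
H3K4me3 fold enrichment (log axis) at each of the 57 members in genome order, in quiescent (blue) and activated (red) NSPCs, with crosses where no region was listed. Filled triangles mark an ATAC peak in all 6 libraries and open triangles one in 1 or 2. The values of both states lie close together at most genes, and genes without a region in either state are most frequent among the later gamma A and gamma B genes.

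At the 28 members marked in both states, fold enrichment was higher in quiescent NSPCs at 20, with a median log2 ratio of 0.34. Over all 13132 promoters marked in both states, 67.1% were higher in quiescent NSPCs, with a median log2 ratio of 0.11. The strength of the members was low. Their median fold enrichment over marked members was 6.60 in quiescent and 8.17 in activated NSPCs, against 37.4 and 35.2 over all marked promoters, which corresponds to percentiles 21.8 and 21.5 of the lists against 66.0 and 64.1. The medians of the members are over 36 and 29 genes, and over the 28 marked in both states they were 11.5 in quiescent and 8.63 in activated NSPCs.

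Most H3K4me3 regions of the members were short and lay mainly inside the variable exon. The median width over all marked members was 785.5 bp in quiescent and 699 bp in activated NSPCs, against 2160 and 2053 bp over the regions at all marked promoters. The median region ran from 54 bp before to 726.5 bp after the gene start in quiescent NSPCs, and from 41 bp before to 632 bp after it in activated NSPCs. The share of a region that lay downstream of the gene start had a median of 93.9% and 93.5%, against 69.3% and 69.5% over all marked promoters. Outside the gamma C genes, every region had more than 50% of its length in the first exon, in 33 of 33 members in quiescent and 27 of 27 in activated NSPCs. At the gamma C genes in quiescent NSPCs, this share was 29.9% at Pcdhgc3, 14.2% at Pcdhgc4 and 33.7% at Pcdhgc5. The regions were also weaker than those at other promoters, as above, and the part of strength in their width was not tested.

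**Figure D5:**
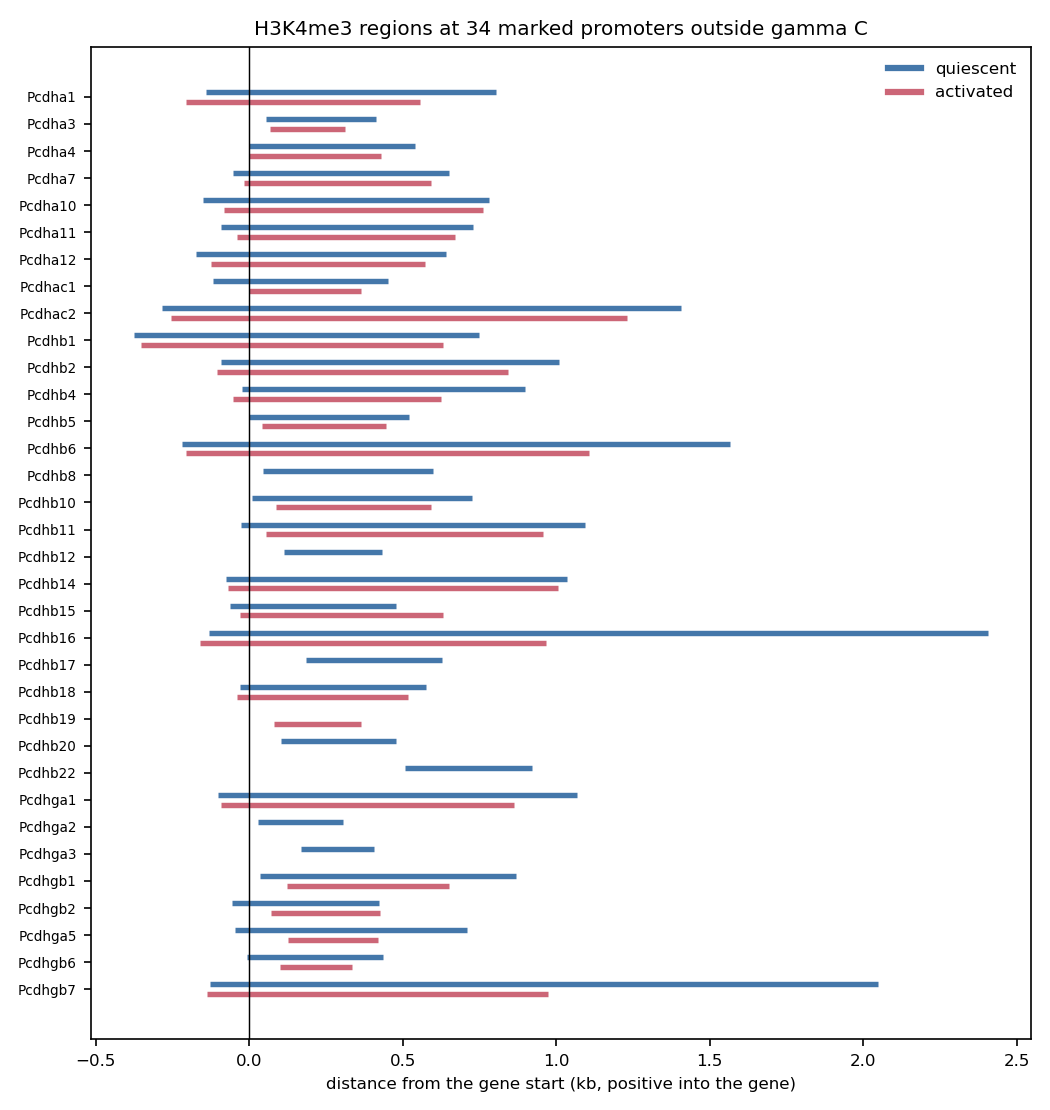
Position of the H3K4me3 regions at the 34 marked members outside the gamma C genes, in kb from the gene start with positive values into the gene, for quiescent (blue) and activated (red) NSPCs. All regions have more than 50% of their length to the right of the gene start, with Pcdhb1 reaching farthest to the left in proportion, and 25 of 33 quiescent and 24 of 27 activated regions end within 1 kb of it.

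GC content was higher at the open C-type promoters than at most other members. In the window of 500 bp on each side of the gene start, GC content had a median of 56.8% at the 4 promoters open in all libraries, with a range from 50.4% to 58.0%. It had a median of 44.5% at the 50 members without an ATAC peak, and 54.7% over all protein-coding promoters. Pcdhgc5, the C-type gene without an ATAC peak, had 52.7% GC but an observed to expected CpG ratio of 0.233, against 0.564 to 0.797 at the 4 open promoters. Not all open promoters stood apart on these measures, since Pcdhgc4, the lowest of the 4 with 50.4% GC and a ratio of 0.670, was close to Pcdhgb7, which had no ATAC peak, with 49.95% and 0.642. The alpha genes had a CpG ratio of 0.569 to 0.749, in the range of the open promoters, and the beta genes had a lower one, with a median of 0.378. The median over all protein-coding promoters was 0.552. GC content can affect the yield of sequencing libraries, and its part in the calls was not tested.

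The variable exons resemble each other, so that short reads can match more than 1 gene. The share of 50-base words in the same window found only once on chromosome 18 was 100% at the 4 open promoters. It had a median of 84.3% in the alpha genes, with a range from 75.3% at Pcdha10 to 97.9% at Pcdha8. It was 100% at 16 of the 22 beta genes and at 23 of the 50 members without an ATAC peak. Pcdha10, with the lowest share, had the strongest H3K4me3 of the alpha genes. By the paper's methods, both assays used longer, paired-end reads. The part of such matches in the calls was not tested.

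Between the genes, open sites gathered at the 3′ ends of the alpha and gamma clusters. Over the span from the start of Pcdha1 to the end of the gamma cluster (chr18:36930184-37841873, 0.912 Mb), peaks of the 6 libraries merged into 30 sites, of which 11 overlapped member promoters and 19 lay between them. This was 32.9 sites per Mb, against 41.1 over the genome. Long stretches held no ATAC peak in any library, the longest of 259 kb, in which the 15 genes from Pcdhb1 to Pcdhb15 start. The next held the 6 genes from Pcdhb17 to Pcdhb22 in 166 kb, and the third the 11 genes from Pcdha2 to Pcdha12 in 159 kb. The third was counted from the edge of the span, at the start of Pcdha1, which had no ATAC peak either.

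The number of sites between genes was 8 and 12 in the quiescent, 11 and 9 in the activated and 12 and 15 in the reactivated libraries. Reactivated NSPCs had 3.5 more than activated NSPCs (13.5 ± 2.12 against 10 ± 1.41, SD, n = 2 each, exact permutation test, two-sided p = 0.333) and 3.5 more than quiescent NSPCs (10 ± 2.83, SD, n = 2, p = 0.667 by the same exact test), and activated and quiescent means were equal (p = 1, exact). The reactivated lists were the longest, and with lists of equal length the differences turned to -2.5 sites against activated and -2 against quiescent NSPCs.

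Open in all 6 libraries were 5 sites between genes. The first lay between the alpha and beta clusters (chr18:37217715-37218515), beyond the constant exons of the alpha cluster and 46824 bp before Pcdhb1, in introns of predicted genes that span the locus. This site had fold enrichments of 12.3 and 10.7 in the quiescent, 12.3 and 7.14 in the activated and 13.2 and 16.0 in the reactivated libraries, and it carried H3K4me3 in both states, with 22.0 and 12.4. Quiescent and activated values overlapped, the reactivated values lay above both, and relative to the median site no difference was called. Reactivated minus quiescent was -0.53 (log2, SE 0.20, limma adjusted p = 0.0616). With the highest -log10 p it was called lower in reactivated NSPCs (-1.31, adjusted p = 0.0262), where 23.8% of sites were called. A weaker neighbour (chr18:37217355-37217582) had a peak in 4 libraries, with 4.55 in quiescent replicate 2, 6.19 in activated replicate 1, and 4.08 and 4.36 in reactivated NSPCs.

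The second was the promoter of Taf7 (chr18:37643963-37644404), a subunit of the general transcription factor TFIID whose gene lies between the beta and gamma clusters. Its peak had fold enrichments of 11.3 and 11.8 in the quiescent, 13.8 and 9.55 in the activated and 19.8 and 21.8 in the reactivated libraries. Relative to the median site, none of the comparisons of states called it, with limma adjusted p from 0.441 to 0.905. Without centring, reactivated minus quiescent was 0.84 (adjusted p = 0.00479) in place of -0.03, in a setting where 66.3% of sites were called. It was the only one of the 5 other protein-coding genes inside the span with an ATAC peak.

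The other 3 lay at the 3′ end of the gamma cluster, between the variable exon of Pcdhgc5 and the last constant exon. The site 4848 bp after the start of Pcdhgc5 (chr18:37824020-37824703), which overlaps exons of Pcdhgc5 and of the predicted gene Gm38182, had 8.13 and 8.92 in the quiescent, 5.89 and 4.83 in the activated and 8.18 and 9.21 in the reactivated libraries. Activated values were below all others. Relative to the median of all 23116 sites with a peak in all 6 libraries, limma called it lower in activated than in quiescent NSPCs, with a difference of -0.90 (log2, SE 0.17, adjusted p = 0.00670), where 11.0% of sites were called and 5.29% as lower. It was also lower in reactivated than in quiescent NSPCs, with a difference of -0.85 (SE 0.17, limma adjusted p = 0.00454), where 33.6% of sites were called and 22.5% as lower. On the linear scale the quiescent and reactivated values overlapped, and without centring this second difference was 0.03 (adjusted p = 0.907). Its call was also lost with the highest -log10 p (-0.67, adjusted p = 0.124). The first was -0.78 (adjusted p = 0.0602) without quiescent replicate 2.

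The next site, 6826 bp after the start of Pcdhgc5 (chr18:37825876-37826804), lay in an intron of the gamma genes and had 3.30 and 4.38 in the quiescent, 6.95 and 7.10 in the activated and 6.29 and 6.47 in the reactivated libraries. It was highest in activated NSPCs. Its difference between activated and quiescent NSPCs was 0.66 (log2, SE 0.20, limma adjusted p = 0.0581). This difference was called with a replicate block (adjusted p = 0.0478), without centring (0.88, adjusted p = 0.0153) and with the highest -log10 p (1.51, adjusted p = 0.0187). In these settings 10.7%, 11.4% and 12.3% of sites were called. It was called lower in reactivated than in activated NSPCs, with a difference of -0.79 (SE 0.20, limma adjusted p = 0.0252), where 16.6% of sites were called and 9.95% as lower. That call was lost without centring (-0.14, adjusted p = 0.573), with the highest -log10 p (-0.75, adjusted p = 0.201), when sites with a peak in 4 or 5 libraries were added (-0.91, adjusted p = 0.0821), and without activated replicate 2 (adjusted p = 0.115), reactivated replicate 1 (adjusted p = 0.121) or reactivated replicate 2 (adjusted p = 0.110). Reactivated minus quiescent was -0.13 (adjusted p = 0.653), and without centring it was 0.75 (adjusted p = 0.00673).

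The last, 16282 bp after the start of Pcdhgc5 (chr18:37835269-37836323), was also intronic and had 4.34 and 3.13 in the quiescent, 5.80 and 6.72 in the activated and 7.58 and 7.80 in the reactivated libraries. Its quiescent values were the lowest and its reactivated values the highest, without overlap, and relative to the median site no difference was called (activated minus quiescent 0.54, SE 0.21, limma adjusted p = 0.123). Without centring it was called higher in activated than in quiescent NSPCs (0.76, adjusted p = 0.0377) and in reactivated than in quiescent NSPCs (1.06 in place of 0.19, adjusted p = 0.00107), where 11.4% and 66.3% of sites were called. The 3 sites at this end of the gamma cluster thus had their lowest fold enrichments in different states on the linear scale, quiescent for the sites at 6826 and 16282 bp and activated for the site at 4848 bp. After centring, the site at 6826 bp was lowest in reactivated NSPCs, with a mean of -0.73 (log2) against -0.60 in quiescent NSPCs, and the site at 4848 bp was similar in activated and reactivated NSPCs, with means of -0.34 and -0.29. The sites at 4848 and 6826 bp each overlapped H3K4me3 in both states, with 7.37 in quiescent and 7.77 in activated NSPCs at either site. Just beyond the end of the gamma cluster, 2 more sites were open in all 6 libraries, one in an intron of Diaph1.

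Between Pcdhac2 and the end of the alpha cluster, 2 sites were open in both activated and both reactivated libraries and only weakly in 1 quiescent library. The site at the start of the predicted gene Gm38097 (chr18:37172227-37172855), 29037 bp after the start of Pcdhac2, had no peak in quiescent replicate 1 and 2.22 in quiescent replicate 2, against 6.90 and 5.70 in activated and 10.1 and 11.3 in reactivated NSPCs. The site at Gm10544 (chr18:37178234-37178871) had no peak and 2.75 in the quiescent, 9.02 and 5.56 in the activated and 11.5 and 10.3 in the reactivated libraries. The quiescent peaks were seen in the deeper of the quiescent libraries. Since 1 library had no peak, these sites were not among those compared above. With sites seen in 4 or 5 libraries added, each missing value was filled with a fixed floor value of its library. Quiescent replicate 1 held such a filled value at both sites, so the differences from quiescent NSPCs in this setting partly restate its missing peak. Limma then called both higher in activated than in quiescent NSPCs, where 24.5% of sites were called. The differences were 1.66 (log2, adjusted p = 0.0142) at Gm38097 and 1.68 (adjusted p = 0.0387) at Gm10544. Reactivated minus quiescent was 1.66 (adjusted p = 0.0237) and 1.54 (adjusted p = 0.0564), where 8772 of 41706 sites were called. Without quiescent replicate 1, the differences from quiescent NSPCs were 1.19 and 1.06 for activated and 1.29 and 1.004 for reactivated NSPCs. H3K4me3 was found at Gm10544 in both states, with 12.2 in quiescent and 12.9 in activated NSPCs, and at Gm38097 in activated NSPCs alone, with 3.53.

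Of the sites found less often, one (chr18:37655529-37655715) was the only one between genes that both libraries of one state held and both of another lacked. It lay at the start of the noncoding gene 3222401L13Rik and had 3.07 and 3.86 in reactivated NSPCs, none in activated NSPCs and 3.59 in quiescent replicate 2. A close neighbour at the same gene (chr18:37655789-37655974) had 4.14 in activated replicate 2 and 3.60 in reactivated replicate 1. The pattern thus depends on counting these neighbours as separate sites. At the promoters, a site 679 bp before Pcdhgc4 (chr18:37814310-37814491) had 3.13 and 3.66 in reactivated NSPCs and no peak in the quiescent and activated libraries. Peaks at the promoter of the pseudogene Pcdhgb8 (chr18:37761539-37761790) were found in 5 libraries, with 3.55 and 3.13 in quiescent, 2.79 in activated replicate 1, and 4.27 and 3.72 in reactivated NSPCs, without H3K4me3.

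Genes around the clusters, and genes whose products act on them, were mostly open. Of the 5 nearest protein-coding genes on each side, 4 upstream and 4 downstream were open in all 6 libraries. All 15 genes examined for regulators of protocadherin promoter choice were open in all 6 libraries and carried H3K4me3 in both states. They include Ctcf, the cohesin subunits Rad21, Smc1a and Smc3, the cohesin release factor Wapl, and Smchd1, a chromatin protein that represses the clustered protocadherins.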

How the data were processed

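ATAC-seq peak lists of 6 libraries and H3K4me3 lists of 2 libraries were analysed. Lists for the 2 input samples were not analysed here. Per the paper's methods and the submitters' processing notes, the authors trimmed reads with Trim Galore 0.4.0, aligned them to mm10 with Bowtie2 2.2.5, removed duplicates with Picard 1.88 and SAMtools 1.3.1, and called peaks with MACS in each library, at an FDR of 0.05 for ATAC-seq and against input with a broad cutoff of 0.01 and reads extended to 150 bp for H3K4me3. Before peak calling, reads of the reactivated libraries had been subsampled by the authors. The fold enrichment deposited by the authors is a ratio of the pileup to the library's own background. The deposited −log10 p-value and q-value grow with depth. The deposited score and summit offset were derived by the authors from these calls, and the score was not used.

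Peaks off the autosomes, X and Y were left out. A gene's promoter was any base within 1 kb of one of its TSSs in GENCODE M21 (GRCm38), and an overlap of 1 bp counted. One gene was given the RefSeq symbol Pcdha10. Sites were made by merging peaks of the 6 ATAC libraries. Summit pileups were worked back from the ratio and the p-value with the MACS formulas, and a whole number of reads matched to within 0.02% for at least 99.98% of the peaks with a −log10 p under 40. Numbers per library were compared by exact permutation tests. Strengths were compared with limma 3.58.1 (R 4.3.3) over all promoters or sites with a peak in all 6 libraries, with Benjamini-Hochberg adjustment. Where promoters or sites with a peak in 4 or 5 libraries were added, each missing value was filled with a fixed floor value of its library. Overlaps, merging and the limma fit were tested on simulated data. The members named are all C-type genes, those with peaks in 2 or more libraries and, between genes, the 10 sites of highest mean percentile. Some others are named where a count was small. Python 3.11.15, numpy, pandas and scipy were used. No promoter sequences are shown. The members, lists and tests were chosen with earlier results of these data known.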

Additional observations from a re-analysis of the deposited data

How the results depend on the processing

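The number of members open in all 6 libraries stayed 4 with windows of 500 bp or 2 kb, with the gene's 5′ end alone and with the summit inside the window. With a −log10 q of at least 10, or with lists of equal length, 2 members were open in all 6 libraries, Pcdhac1 and Pcdhgc3. With lists of equal length, the number of open member promoters differed by 1.5 between activated and quiescent and by -1 between reactivated and activated NSPCs. Leaving out a library moved the first difference over -0.5 to 0.5 and those of reactivated NSPCs over -0.5 to 1.5, the lowest without reactivated replicate 2. H3K4me3 was found at 7 more members in quiescent than in activated NSPCs, and at 2 more with lists of equal length. At a −log10 q of at least 10 there were 24 and 18 members. The alternatives of equal length and of the region's centre for H3K4me3, the counts over all 6 libraries and the comparisons of reactivated NSPCs at sites were added after seeing the data.

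Between genes, 12 sites remained at a −log10 q of at least 10, 3 of them in all 6 libraries, and activated and quiescent NSPCs then differed by 3 sites. With lists of equal length, reactivated NSPCs differed by -2.5 sites from activated and by -2 from quiescent NSPCs. Without 1 library, the differences ran over -2 to 2 (activated minus quiescent), 2 to 5 (reactivated minus activated) and 1.5 to 5.5 (reactivated minus quiescent).

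Calls over all promoters between activated and quiescent NSPCs numbered 192. They were 340 without centring, 94 with quantile normalization, 443 with promoters seen in 4 or 5 libraries, 70 at a −log10 q of at least 10, and 16 (without quiescent replicate 2) to 82 without any 1 of the 6 libraries. Between reactivated and activated NSPCs they numbered 1477, against 5722 without centring, 423 with the highest −log10 p, 487 with promoters seen in 4 or 5 libraries, and 0 (without reactivated replicate 1), 45 (without reactivated replicate 2) or 562 (without activated replicate 2) to 1649 without 1 library. Between reactivated and quiescent NSPCs they numbered 3078, against 7702 without centring, 1599 with the highest −log10 p, and 290 (without reactivated replicate 1), 651 (without reactivated replicate 2) or 1425 (without quiescent replicate 2) to 3530. Sites called between activated and quiescent NSPCs numbered 2554, against 10202 with sites seen in 4 or 5 libraries, 879 at a −log10 q of at least 10, and 1152 to 2102 without 1 library. Without 1 library, calls at sites ran over 237 to 3602 between reactivated and activated and over 3048 to 8898 between reactivated and quiescent NSPCs. The cause of these changes was not tested.

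Several estimates near 0 changed sign, all on the log2 scale. At Pcdhgc3, activated minus quiescent was 0.076 without centring and 0.021 with quantile normalization, and ran over -0.19 to 0.026 without 1 library. Its reactivated values without centring were 0.14 against activated and 0.21 against quiescent. Reactivated minus activated was 0.24 at Pcdhgc4 without centring and -0.31 at Pcdhac1 with the highest −log10 p, and ran over -0.13 to 0.35 at Pcdhac1 and -0.15 to 0.40 at Pcdhac2 without 1 library. At the site between the alpha and beta clusters it was 0.63 without centring, 0.10 with quantile normalization and 0.10 at a −log10 q of at least 10 (range without 1 library -0.33 to 0.23), and reactivated minus quiescent was 0.35 without centring. At Taf7 reactivated minus activated was -0.038 with the highest −log10 p, and reactivated minus quiescent was 0.84 without centring, 0.38 with quantile normalization and 0.14 at a −log10 q of at least 10 (range without 1 library -0.17 to 0.037). At the sites after Pcdhgc5, the one at 4848 bp gave -0.069 for reactivated minus activated with sites seen in 4 or 5 libraries (range -0.013 to 0.11) and 0.028 for reactivated minus quiescent without centring. The one at 6826 bp gave 0.75 without centring and 0.76 with the highest −log10 p for reactivated minus quiescent (range -0.44 to 0.11). The one at 16282 bp gave 0.30 for reactivated minus activated without centring, and -0.013 to 0.31 for reactivated minus quiescent without 1 library.

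Replicate numbers showed little shared effect on peak strength. The replicate differences of any 2 states correlated at -0.0186 to 0.0303 over promoters and at -0.0173 to 0.0423 over sites. Whether libraries of the same number were prepared together cannot be told from these correlations. With a replicate block, 201, 1396 and 2986 promoters were called and 2480, 3598 and 7629 sites, in the order of the comparisons above. With the block, the differences in number of open promoters stayed 0, 0.5 and 0.5, and those of sites 0, 3.5 and 3.5. Pcdhac1 was then called in reactivated against quiescent NSPCs (adjusted p = 0.0431) and the site at 6826 bp in activated against quiescent NSPCs (adjusted p = 0.0478). With 2 libraries per state and no read counts below the peak threshold, weaker openings and small differences were not detectable.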
